A study of Mus musculus with 9 samples.

Results

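Distal small intestine of wild type mice was compared with that of mice labelled BP, with 3 arrays in each group. The 6 arrays are all those titled B6 or BP among the 9 arrays of the series, and the other 3, titled Rag1, are used here only as a reference level. Wild type mice are labelled as B6, the inbred strain, and BP tissue is labelled as coming from Rag 1 mice, as the Rag1 arrays are. The labels do not spell out BP. As the study is otherwise known, BP stands for a "backpack", a hybridoma implanted under the skin of a Rag1-/- mouse that secretes a single IgA into the circulation, so those mice have antibody but no lymphocytes that make it. All groups, controls included, had been colonized for 10 days with the gut bacterium Bacteroides thetaiotaomicron. The small intestine was divided into 16 pieces, pieces 10, 11, 12 and 14 were pooled as whole tissue, and 20 µg of total RNA was labelled for each array. Age, sex and the exact Rag1 genotype are not given in the labels. Nor do the labels tie each array to 1 mouse, and the p-values therefore cover variation between arrays that may be partly technical. The series concerns the effect of IgA on this tissue, and the comparison of wild type with BP asks which differences from normal mice are present in BP mice.

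Rag1 encodes a subunit of the recombinase that cuts and joins the gene segments of immunoglobulins and T cell receptors. Without it neither B nor T cells mature, while macrophages, granulocytes and natural killer cells still form. In the small intestine, plasma cells of the lamina propria secrete IgA joined by the J chain, which the epithelium carries into the lumen. T cells in and under the epithelium carry granzymes and release interferon gamma. Interferon gamma induces antigen presentation genes and a family of large GTPases in epithelial and other cells.

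Values are given as normalised signal on the log2(intensity + 16) scale, on which the lowest deposited intensity, 1, is 4.09. Differences are wild type minus BP on that scale, with the standard error (SE), and understate the change of dim genes. After the dimmest were left out, 27022 of 45037 non-control probe sets were tested, and each of 13570 genes is represented by its brightest tested probe set. A probe set was called where limma's p-value, adjusted by the Benjamini-Hochberg method over all tested probe sets, was under 0.05. By that rule 45 probe sets were higher in wild type, 0.167% of those tested, and 7 were lower, 0.0259%. The unadjusted p was under 0.05 for 2873 probe sets. Of the 51 named genes with more than 1 tested probe set, 19 had probe sets of both signs, and none of those 19 was called by its brightest. Counted by gene, 24 were higher in wild type (0.177%) and 3 were lower (0.0221%). The arrays of the groups did not overlap, with wild type higher, in 1602 genes (11.8%) and, with wild type lower, in 1001 genes (7.38%).

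BP replicate 2 stood apart from the other BP arrays. Its median absolute difference from them was 0.579 and 0.588 on the log2 scale, against 0.313 between BP replicates 1 and 3 and 0.234 to 0.279 between wild type arrays. The ratio of the 3' to the 5' probe set of actin, a measure of RNA or label length, was 14.2 and 20.2 on BP replicates 1 and 3, 2.43 on BP replicate 2 and 1.76 to 4.17 on wild type arrays. The median within-group standard deviation was 0.437 in BP and 0.228 in wild type. Without BP replicate 2 the count of called probe sets was 1530 higher and 959 lower, and all 45 and all 7 of the original calls were among them. Leaving out any other array gave 18 to 26 higher and 1 to 2 lower. The part of RNA or label length in the differences was not tested. All 52 called probe sets had the same sign against BP replicate 2 alone as against all BP arrays, and 28 of the 45 higher and 4 of the 7 lower differed from BP replicate 2 at least as much as from the mean of replicates 1 and 3. The tissue carried the expected markers in every array: the villus protein gene Vil1 lay between 4396 and 6270 in deposited intensity on the 6 arrays, and the goblet cell mucin Muc2 between 3205 and 4475. The ileal bile acid carrier Slc10a2 was dim, at 14.9 to 68.7.

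**Figure D1:**
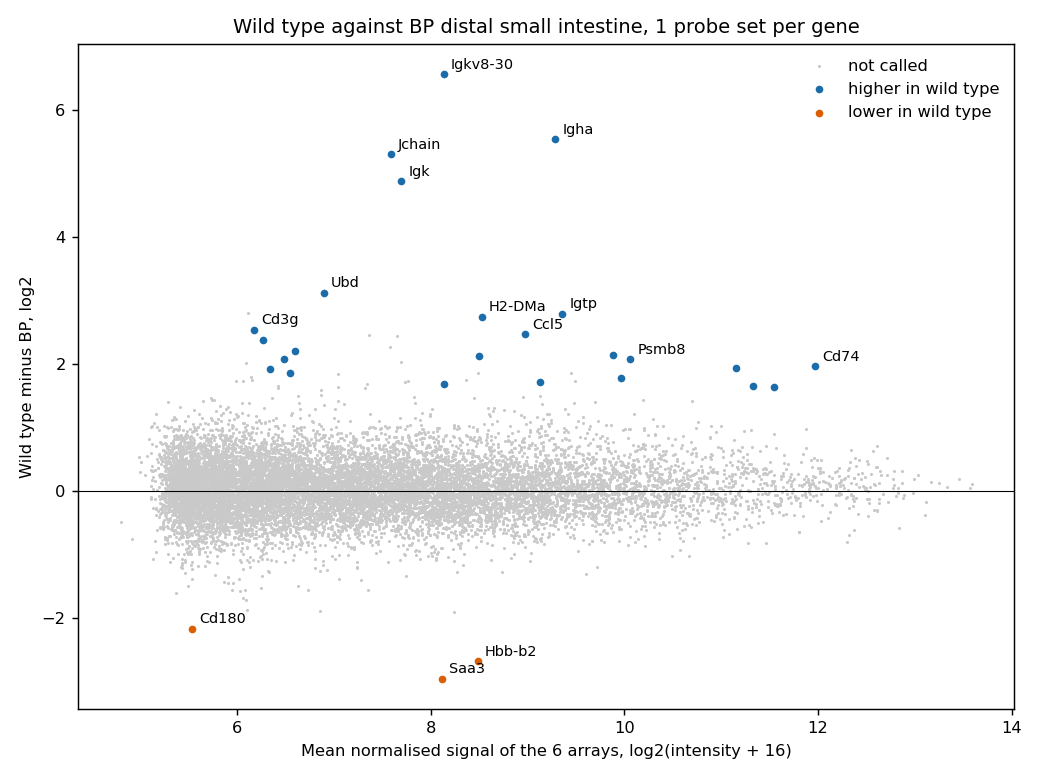
Difference between wild type and BP (y axis, log2) against the mean normalised signal of the 6 arrays (x axis, log2(intensity + 16)), 1 point for each of 13570 genes. The 24 genes called higher in wild type (blue) reach 6.57, and the 3 called lower (orange) reach -2.95.

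Transcripts of IgA-producing plasma cells showed the largest differences of all genes tested. Immunoglobulin heavy chain alpha, the J chain and kappa light chain sequences were 29.5-fold to 95-fold higher in wild type. Igha, the constant region of IgA, measured 12.21, 11.32 and 12.64 on the wild type arrays and 7.19, 5.78 and 6.57 on the BP arrays, with no overlap and with Rag1 arrays at 6.60, 6.69 and 6.56. The BP arrays thus lay on both sides of the Rag1 arrays. The difference was 5.54 (SE 0.42, adjusted p = 0.000842), and the 2 dimmer Igha probe sets gave 6.86 and 7.35. Jchain, which links IgA into dimers, measured 10.49, 8.92 and 11.30 against 5.19, 5.02 and 4.58, a difference of 5.31 (SE 0.53, adjusted p = 0.00491). In wild type replicate 2, Jchain, Igha and both kappa genes were lower than in the other wild type arrays, and still above every BP array. The variable segment Igkv8-30 measured 10.43 to 12.03 in wild type and 4.66 to 5.08 in BP, close to the floor of the scale, and differed by 6.57 (SE 0.40, adjusted p = 0.000312). Igk, the kappa locus, differed by 4.88 (SE 0.41, adjusted p = 0.00165) in its brightest probe set, and its other 2 tested probe sets gave 1.16 and 0.59 and did not pass. With a pseudocount of 1 or 64 in place of 16 the difference ran from 7.65 to 5.18 for Igkv8-30 and from 6.31 to 4.01 for Jchain.

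Of the 27 tested genes on a list of 43 B cell and plasma cell genes, 3 were called higher (Igkv8-30, Igha and Jchain), 24 did not pass and none was called lower. Their median difference was 0.49, against 0.041 over all genes tested. Next to the threshold was Iglv1, a lambda light chain variable segment, with 6.82, 7.23 and 8.50 in wild type against 4.99, 4.65 and 4.49 in BP (difference 2.80, SE 0.43, adjusted p = 0.0543). Among genes of B cells themselves, Cd79a, a signalling chain of the B cell receptor, differed by 1.73 (adjusted p = 0.235) and Ms4a1, which encodes CD20, by 1.06 (adjusted p = 0.338). Neither overlapped between the groups. For IgM, 1 dimmer Ighm probe set was called (2.64), while the brightest gave 0.83 and did not pass. Pigr, the epithelial receptor that carries IgA to the lumen, measured 12.45, 12.17 and 12.59 in wild type and 12.46, 12.14 and 12.23 in BP. That difference was 0.13 with a 95% interval from -0.20 to 0.46 (adjusted p = 0.819). A dimmer Pigr probe set gave 1.05 without overlap and did not pass (adjusted p = 0.215), so the probe sets disagree on the size. Without wild type replicate 1 the adjusted p of Jchain was 0.0558; the calls of Igha, Igkv8-30 and Igk were kept whichever array was left out, with adjusted p of at most 0.0225. In bulk tissue, fewer cells of a type cannot be told apart from less RNA per cell, here and in the groups that follow.

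Genes of the T cell receptor and its CD3 complex were called higher in wild type, at much lower signal than the immunoglobulins: Cd3g, Cd3e, Trav9d-3 and Trgv4. Cd3g, a chain of the CD3 complex that signals for the T cell receptor, measured 7.20, 7.41 and 7.72 in wild type against 4.62, 5.27 and 4.80 in BP. The Rag1 arrays lay in between, at 5.59, 5.70 and 5.60, above every BP array and below every wild type array. The difference was 2.54 (SE 0.30, adjusted p = 0.012). Cd3e, another chain of the complex, measured 7.53, 7.34 and 7.04 against 5.10, 5.58 and 5.46, a difference of 1.92 (SE 0.28, adjusted p = 0.0425). Here BP and Rag1 arrays (5.27 to 5.37) overlapped. Receptor segments were called as well, Trav9d-3 of the alpha chain by 2.39 (adjusted p = 0.0369) and Trgv4 of the gamma chain by 2.09 (adjusted p = 0.0425). A dimmer tested probe set of each did not pass, at 0.81 for Trav9d-3 (adjusted p = 0.454) and 2.39 for Trgv4 (adjusted p = 0.0824). The called Trav9d-3 probe set measured 6.32 to 6.98 on Rag1 arrays, against 4.55 to 5.61 on BP arrays. Of 17 tested genes on the T cell list, 2 were called higher, 15 did not pass and none was called lower, with a median difference of 0.66. The third CD3 gene, Cd3d, differed by 1.35 (adjusted p = 0.204), and Cd7, a surface protein of T and natural killer cells, by 2.46 (adjusted p = 0.0898), both without overlap. The mean level over the 17 genes was 6.82 to 7.08 on the wild type arrays and 6.19 to 6.27 on the BP arrays. The coreceptor gene Cd4 was too dim to test, at deposited intensities of at most 33.6 on any of the 6 arrays.

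Of the products of cytotoxic lymphocytes, Gzma, Gzmb, Nkg7 and Ccl5 were called higher in wild type. Gzma, granzyme A, measured 10.65, 11.11 and 11.11 in wild type and 8.50, 9.30 and 8.62 in BP, and differed by 2.15 (SE 0.25, adjusted p = 0.0126). Gzmb, granzyme B, measured 8.65, 9.12 and 9.15 against 7.35, 7.32 and 7.21, a difference of 1.68 (SE 0.24, adjusted p = 0.0369). Both granzymes were well above the floor on BP arrays as on Rag1 arrays, where Gzma lay between 9.0 and 9.42. Nkg7, a protein of cytotoxic granules, differed by 2.20 (SE 0.29, adjusted p = 0.0267), and its 3 wild type arrays lay within 7.63 to 7.76. Ccl5, a chemokine stored by cytotoxic lymphocytes, measured 9.96, 10.36 and 10.30 against 7.86, 7.29 and 8.07, a difference of 2.47 (SE 0.26, adjusted p = 0.00646). Rac2, a small GTPase of blood cells, differed by 1.85 (adjusted p = 0.0421). On the cytotoxic and natural killer list 4 of 16 tested genes were called higher and none lower, against 0.177% and 0.0221% of all genes. The median was 0.63, with 0.35 from BP replicate 2 and 0.59 from BP replicates 1 and 3. Of the 16 differences 11 were positive and 5 negative, down to -1.12. Arrays did not overlap in 9 with wild type higher and in 1 with wild type lower, against 11.8% and 7.38% of all genes. Perforin, Prf1, did not pass (1.21, adjusted p = 0.258), and its Rag1 arrays, at 6.3 to 7.04, reached above the wild type arrays, at 5.86 to 6.41.

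These calls rested on the full set of arrays. Leaving out 1 of BP replicates 1 and 3 or of the 3 wild type arrays ended the call of Cd3g, Cd3e, Trgv4, Rac2, Nkg7, Gzma and Gzmb each time, with adjusted p up to 0.356. Trav9d-3 lost its call without BP replicate 3 or any wild type array, with adjusted p up to 0.293. Ccl5 lost its call only without wild type replicate 2 or 3, with adjusted p up to 0.0965. Without BP replicate 2 every one of them was called. The size of the dim genes depended on the pseudocount: with 64 the difference was 1.51 for Cd3g, 1.2 for Cd3e, 1.45 for Trav9d-3, 1.44 for Nkg7, 1.35 for Trgv4 and 1.21 for Rac2.

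**Figure D2:**
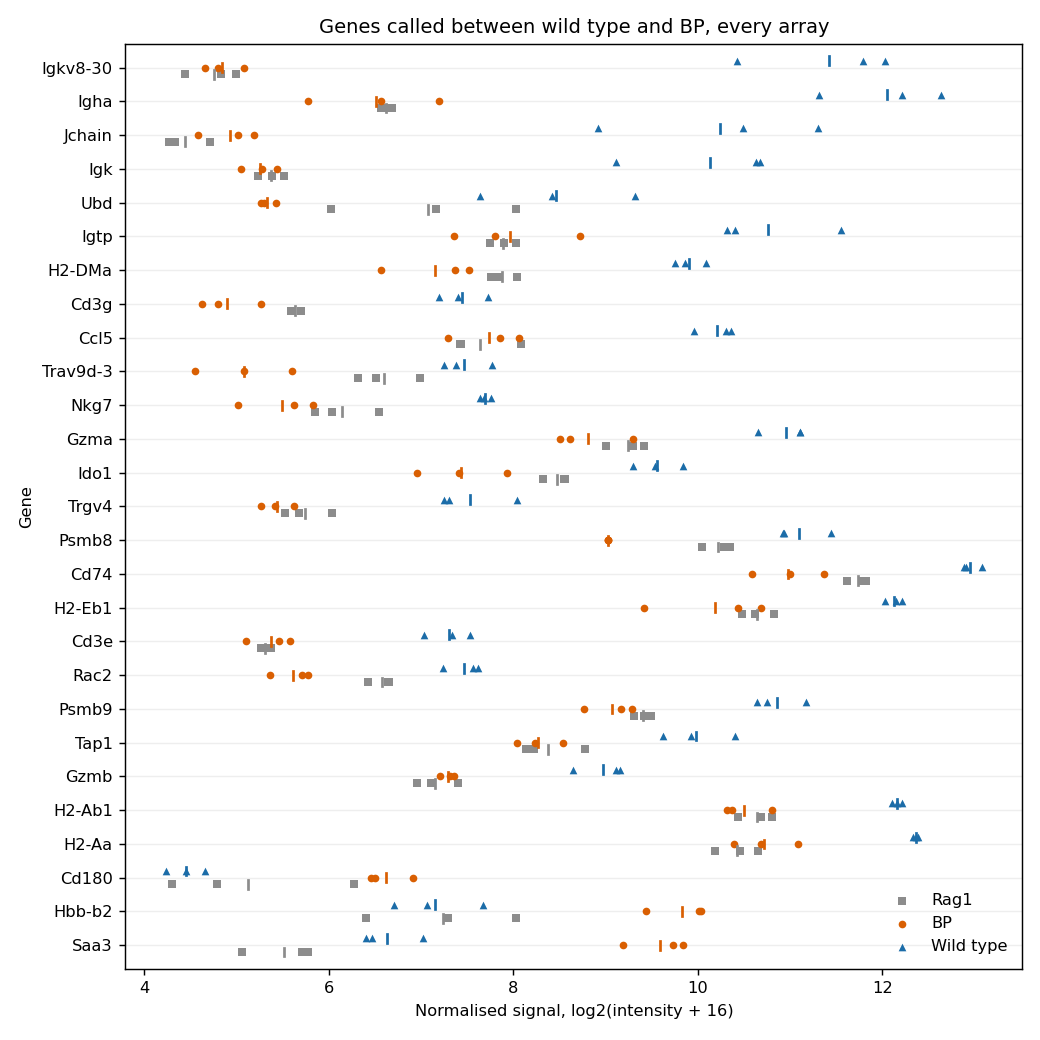
Normalised signal (x axis, log2(intensity + 16)) of the 27 genes called between wild type and BP (y axis) on every array, with wild type as triangles, BP as circles, Rag1 as squares and a short bar at each group mean. No wild type and BP points overlap, and the Rag1 mean lies nearer BP than wild type for 20 of the 24 genes higher in wild type.

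The chains of MHC class II and 2 proteins that guide and load them, Cd74 and H2-DMa, were called higher in wild type. Cd74, H2-Aa, H2-Ab1 and H2-Eb1 had the highest mean signal on the 6 arrays of all genes called. Cd74, the invariant chain that guides class II to the endosome, measured 12.90, 13.08 and 12.89 in wild type against 11.00, 10.58 and 11.37 in BP (difference 1.97, SE 0.19, adjusted p = 0.00443). H2-Aa, an alpha chain, measured 12.33, 12.36 and 12.39 against 10.68, 10.40 and 11.09, a difference of 1.64 (SE 0.18, adjusted p = 0.0085). All 4 of its probe sets were called, with differences from 1.64 to 3.46. Its partner H2-Ab1 differed by 1.66 (SE 0.16, adjusted p = 0.00465) in the brightest of 3 called probe sets, and by 2.59 and 2.98 in the others. H2-Eb1, a beta chain, differed by 1.95 (SE 0.29, adjusted p = 0.0488). On BP replicate 2 it was lowest, at 9.42 against 10.43 and 10.69. H2-DMa, which exchanges the peptides that class II carries, measured 9.75, 10.09 and 9.86 against 7.37, 6.56 and 7.52 and differed by 2.75 (SE 0.29, adjusted p = 0.00674). Its other probe set gave 1.33 and did not pass.

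Of 14 tested genes on the class II list, 5 were called higher, 9 did not pass and none was called lower, with a median of 0.40. Ciita, the master coactivator of class II genes, was dim, at 6.58, 6.64 and 5.72 in wild type and 5.42, 5.58 and 5.04 in BP, and its difference of 0.97 did not pass (adjusted p = 0.37). Among genes that mark macrophages and dendritic cells, which carry class II, 0 of 36 tested were called in either direction. Of all genes, 0.177% were called higher and 0.0221% lower. The median over the 36 was -0.19, with 0.07 from BP replicate 2 and -0.20 from BP replicates 1 and 3. The mean level over that list was 6.75 to 7.13 on wild type arrays and 7.0 to 7.3 on BP arrays. In the brightest probe sets the Rag1 and BP arrays overlapped for H2-Aa (Rag1 at 10.18 to 10.65) and H2-Ab1 (10.44 to 10.80), and every Rag1 array of Cd74 (11.62 to 11.82) was above every BP array. In dimmer probe sets the Rag1 arrays lay between the groups: 9.38 to 9.84 against 7.98 to 8.61 in BP for 1 of H2-Aa, and 8.94 to 9.35 against 7.84 to 8.22 for 1 of H2-Ab1. Leaving out any 1 wild type array ended the calls of H2-Aa, H2-Ab1, H2-DMa and H2-Eb1, with adjusted p up to 0.105 for the first of them, 0.0588 for the second, 0.0872 for the third and 0.361 for the fourth. H2-Aa was also lost without BP replicate 1, and H2-Eb1 without BP replicate 1 or 3. Cd74 lost its call only without wild type replicate 2 (adjusted p = 0.0537).

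Of the machinery that makes and moves peptides for MHC class I, Psmb8, Psmb9 and Tap1 were called higher in wild type. Psmb8, a catalytic subunit of the interferon-induced immunoproteasome, measured 10.92, 11.44 and 10.94 in wild type and 9.02, 9.03 and 9.03 in BP. The difference of 2.08 (SE 0.19, adjusted p = 0.0037) was called whichever array was left out. Its Rag1 arrays, at 10.04 to 10.35, lay nearer wild type than BP. Psmb9, another such subunit, differed by 1.78 (SE 0.22, adjusted p = 0.0175), from 10.64 to 11.17 in wild type against 8.77 to 9.28 in BP. Tap1, a subunit of the transporter that brings peptides into the endoplasmic reticulum, measured 9.92, 10.41 and 9.63 against 8.04, 8.24 and 8.53, a difference of 1.72 (SE 0.26, adjusted p = 0.0488). Psmb9 and Tap1 kept their calls only without BP replicate 2, and reached adjusted p of 0.148 and 0.331 when another array was left out.

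On the class I list 3 of 19 tested genes were called higher, 16 did not pass and none was called lower. Of the 19 differences, 18 were positive, and the median was 0.71. In 13 of the 19 the arrays did not overlap, with wild type higher, against 11.8% of all genes. Tap2, the partner of Tap1, differed by 1.47 (adjusted p = 0.142) and Nlrc5, the coactivator of class I genes, by 1.75 (adjusted p = 0.215). The heavy chain H2-K1 differed by 0.71 (adjusted p = 0.23) and the light chain B2m by 0.48 (adjusted p = 0.33). H2-D1 gave 0.98 in its brightest probe set (adjusted p = 0.142), while 1 dimmer probe set was called at 1.25. Classical heavy chains are close in sequence, so probe sets of H2-K1 and H2-D1 may share signal.

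Genes induced by interferon gamma included some of the larger differences outside the immune receptors. Ubd, a ubiquitin-like protein that tags others for the proteasome, measured 8.42, 9.32 and 7.64 in wild type and 5.30, 5.27 and 5.43 in BP. The Rag1 arrays, at 7.16, 8.03 and 6.03, were all above the BP arrays. The difference was 3.13 (SE 0.40, adjusted p = 0.0223). Ido1, which breaks down tryptophan, measured 9.30, 9.84 and 9.54 against 7.93, 6.95 and 7.41 and differed by 2.13 (SE 0.29, adjusted p = 0.0338), again with Rag1 arrays, at 8.32 to 8.56, between the groups. On the interferon gamma list 3 of 26 tested genes were called higher (Psmb9, Ubd and Ido1) and none lower, with a median of 0.76. Batf2 and Irf8, transcription factors of the response, differed by 1.72 (adjusted p = 0.131) and 1.39 (adjusted p = 0.138), and Irf1 by 0.68 (adjusted p = 0.283). Ubd lost its call without BP replicate 1 or 3 or wild type replicate 1 or 2 (adjusted p up to 0.175), and Ido1 without BP replicate 3 or any wild type array (up to 0.287).

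The large GTPases that attack the vacuoles of intracellular microbes had the highest median of the 40 lists, 1.55. Igtp, also known as Irgm3, measured 10.32, 11.56 and 10.40 in wild type and 7.36, 8.72 and 7.80 in BP, with Rag1 at 7.75, 8.03 and 7.89. It differed by 2.80 (SE 0.42, adjusted p = 0.0487), and was highest on replicate 2 in both groups. Irgm2 measured 8.24, 9.84 and 8.53 against 6.60, 6.80 and 5.89 (2.44, SE 0.43, adjusted p = 0.124), and Irgm1, a regulator of the family, 8.34, 9.41 and 8.39 against 6.28, 7.07 and 5.98 (2.27, SE 0.39, adjusted p = 0.0943). Neither passed, although their arrays did not overlap. Of the 10 genes tested from a list of 18, 1 was called, all 10 differences were positive and 8 did not overlap, with wild type higher, against 11.8% of all genes. The others ran from 0.64 (Gbp3) to 1.62 (Gbp6), with Iigp1 at 1.60 and Ifi47 at 1.49. Leaving out any array but BP replicate 2 ended the call of Igtp, with adjusted p up to 0.243, and 9 of its 20 alternative fits called it.

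To show what these genes share outside the arrays, the bases upstream of their starts were read from RefSeq promoters of assembly GRCm38.p6, each covering 250 bases before to 50 after a start. An entry was found for 7 of the 10 tested GTPase genes and for 16 of the 27 called genes. An interferon-stimulated response element, written as GAAA, 2 bases of any kind and GAAA, was searched on both strands, and copies may overlap. Capitals mark it in the stretches below, which run 5′ to 3′ on the strand of the gene and end before its start.
Igtp: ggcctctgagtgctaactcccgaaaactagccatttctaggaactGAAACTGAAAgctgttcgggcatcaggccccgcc
Irgm2: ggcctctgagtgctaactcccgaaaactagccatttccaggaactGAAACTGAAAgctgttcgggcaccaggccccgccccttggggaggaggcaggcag
Irgm1: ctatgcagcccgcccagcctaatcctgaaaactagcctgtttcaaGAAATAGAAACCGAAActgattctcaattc
These lie at chr11:58199477-58199555 (plus strand) for Igtp, chr11:58214868-58214967 (plus strand) for Irgm2 and chr11:48871421-48871495 (minus strand) for Irgm1. Igtp and Irgm2 are neighbours, and 77 of the first 79 bases shown are identical between them, the response element included. Irgm1 holds 2 overlapping copies of it. The response element was found for 6 of the 7 GTPase genes, against 3.99% of all 27025 genes with a promoter entry. It was found for 3 of 15 genes on the class I list and for 1 of 9 on the class II list. On the interferon gamma list it was found for 2 of 20, and on the type I interferon list for 14 of 31. Among called genes with an entry it was found for 2 of 14 called higher and 1 of 2 called lower. A match describes these letters and does not show that a factor binds.

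Antiviral genes of the type I interferon response had 0 of 42 tested members called, with a median of 0.46. In 13 of the 42 the arrays did not overlap with wild type higher, against 11.8% of all genes, and in 1 with wild type lower, against 7.38%. Sp100, a nuclear body protein, was nearest the threshold at 7.32, 7.39 and 7.06 in wild type and 5.71, 5.71 and 5.37 in BP (1.66, adjusted p = 0.0662). Zbp1, a sensor of nucleic acids, differed by 1.48 in its brightest probe set (adjusted p = 0.231) and by 2.88 in a dimmer one that was called (adjusted p = 0.0488). Bst2, which tethers virus particles, differed by 1.64 (adjusted p = 0.25), and Usp18, a negative regulator of the response, by 1.39 (adjusted p = 0.265). Oas1a differed by 0.72 (adjusted p = 0.266).

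**Figure D3:**
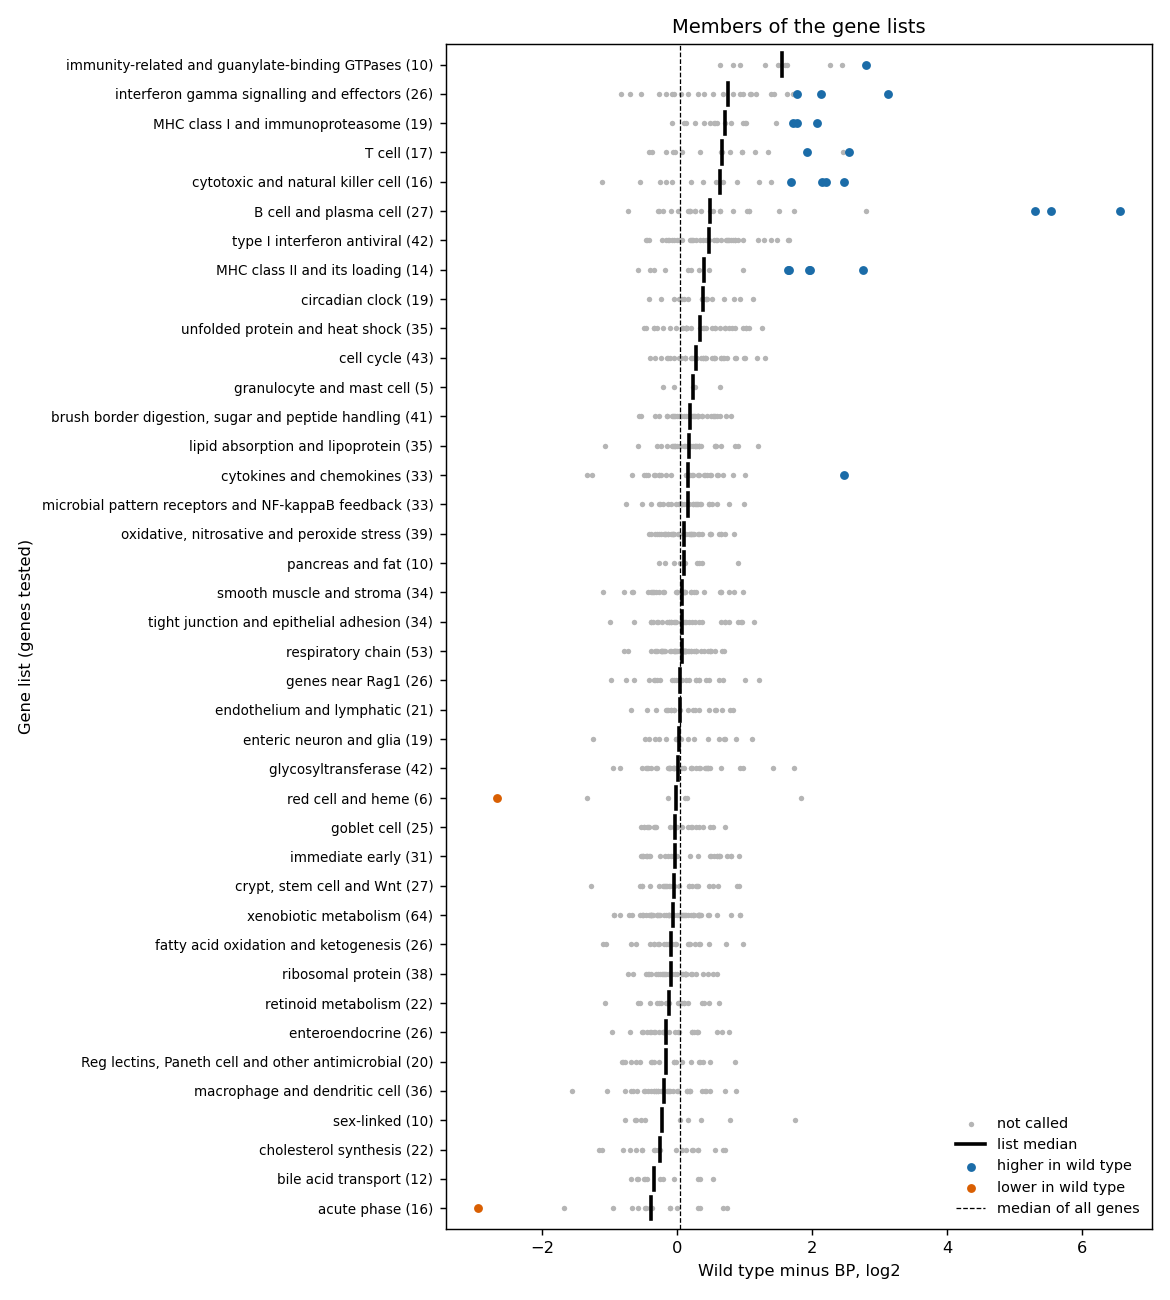
Difference between wild type and BP (x axis, log2) for each tested member of the 40 gene lists (y axis, number tested in brackets), with a black bar at the list median and a dashed line at the median of all genes, 0.041. The GTPase list has the highest median, 1.55, and the acute phase list the lowest, -0.39.

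In the other direction, 3 genes were lower in wild type, led by an acute phase gene. Saa3, a serum amyloid A made by macrophages and epithelium in inflammation, measured 6.41, 7.03 and 6.47 in wild type against 9.19, 9.73 and 9.84 in BP. The Rag1 arrays, at 5.71, 5.06 and 5.77, lay below both groups, so that BP was the highest of the 3 groups. The difference was -2.95 (SE 0.28, adjusted p = 0.00392) and was called whichever array was left out. On the acute phase list 1 of 16 tested genes was called lower and none higher, with a median of -0.39. That median was -0.05 from BP replicate 2 and -0.43 from BP replicates 1 and 3. Arrays did not overlap in 3 with wild type lower and in 2 with wild type higher, against 7.38% and 11.8% of all genes. Of the relatives of Saa3, Saa1 gave -1.68 and Saa2 -0.96, and neither passed. Mbl2, a lectin that opens the complement cascade, measured 8.28, 7.20 and 8.40 against 8.12, 8.21 and 7.88, a difference of -0.11 with a 95% interval from -0.87 to 0.65.

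Hbb-b2, an adult beta globin gene, measured 7.67, 6.70 and 7.07 in wild type and 10.03, 9.44 and 10.01 in BP. It differed by -2.68 (SE 0.30, adjusted p = 0.01), with Rag1 arrays, at 6.40 to 8.02, around the wild type level. Alas2, the heme synthesis enzyme of red cells, gave -1.35 without overlap (adjusted p = 0.171). The alpha globin gene Hba-a2 went the other way, at 8.14, 8.74 and 7.01 against 7.13, 5.76 and 5.47, a difference of 1.84 that did not pass (adjusted p = 0.318). Of 6 tested red cell genes, 1 was called lower and none higher. Cd180, a receptor of B cells and macrophages related to Toll-like receptors, measured 4.45, 4.67 and 4.24, near the floor, against 6.91, 6.46 and 6.50 (-2.17, SE 0.29, adjusted p = 0.0303). Rag1 replicate 2, at 6.28, was near the BP arrays, and the other Rag1 arrays were at 4.79 and 4.30. Hbb-b2 lost its call without BP replicate 1 or 3 or wild type replicate 2 or 3 (adjusted p up to 0.105), and Cd180 without any array but BP replicate 2 (up to 0.228). With a pseudocount of 64 the difference of Cd180 was -1.07.

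Reg3b, a secreted lectin that kills bacteria, was called lower in wild type by 1 of its 2 probe sets. That one measured 11.18, 10.68 and 11.22 in wild type and 12.85, 12.47 and 12.54 in BP, with Rag1 at 12.81 to 12.99, and differed by -1.60 (adjusted p = 0.0099). The brighter one measured 12.10, 11.79 and 11.79 against 13.26, 12.12 and 12.72 and differed by -0.81 (SE 0.25, adjusted p = 0.333). On that probe set every Rag1 array was at 13.71, because quantile normalization gives probe sets of equal rank the same value. The deposited Rag1 intensities were 13363, 14790 and 12480. BP replicate 2, at 12.12, was just above the highest wild type array, at 12.10. Reg3g, a close relative of the same function, overlapped between the groups, with a difference of -0.82 (95% interval -1.58 to -0.06, adjusted p = 0.432). On the list of Reg lectins, Paneth cell products and other antimicrobial genes 0 of 20 were called by the brightest probe set, with a median of -0.17 (-0.09 from BP replicates 1 and 3). Lypd8, an antibacterial protein of the epithelial surface, differed by 0.38 (adjusted p = 0.337). Mios, a part of the nutrient-sensing GATOR complex, was likewise called lower in 1 dimmer probe set (-2.15), and Ywhaz and Slc35a2 were called higher in dimmer ones (1.69 and 1.73). The brightest probe sets of these genes had the opposite sign and did not pass, at 0.15 for Mios, -0.38 for Ywhaz and -0.74 for Slc35a2. Dimmer probe sets are named here after their values were seen.

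Myeloid genes did not pass. On the macrophage and dendritic cell list 24 of 36 differences were negative and 12 positive, the highest 0.88. Its median was 0.07 from BP replicate 2 and -0.20 from BP replicates 1 and 3. Arrays did not overlap in 4 with wild type higher and in 6 with wild type lower, against 11.8% and 7.38% of all genes. The 3 members nearest the threshold were higher on BP arrays. Wfdc17, a protein of activated macrophages, measured 6.36, 6.50 and 6.87 in wild type and 8.07, 7.94 and 8.39 in BP, with Rag1 at 6.04 to 6.24 (-1.56, SE 0.26, adjusted p = 0.0902). C1qb, a subunit of complement C1q made by macrophages, gave -1.05 (adjusted p = 0.341) in the brightest of 3 probe sets, which ran from -1.26 to 0.33, and Csf1r, the receptor that sustains macrophages, -0.66 (adjusted p = 0.371). The chemokine Ccl8 measured 7.75, 7.27 and 7.90 against 8.74, 8.22 and 9.77 (-1.27, adjusted p = 0.329), and its Rag1 arrays, at 5.61 to 6.26, were below both. On the cytokine and chemokine list only Ccl5 was called among 33 tested genes. The granulocyte genes S100a8, S100a9 and Mpo were too dim to test on these arrays, and of 5 tested granulocyte and mast cell genes none passed, with Kit at 0.63 and Il1b at 0.23.

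Some genes that set Rag1 arrays apart from both other groups were not called between wild type and BP. Tifa, an adaptor of NF-kappaB signalling, measured 7.97, 8.31 and 7.92 in wild type and 8.25, 7.97 and 7.83 in BP, against 10.47 to 11.14 on Rag1 arrays. The wild type minus BP difference was 0.05 with a 95% interval from -0.49 to 0.60. Dbp, an output gene of the circadian clock, measured 9.79, 9.13 and 8.99 against 8.04, 10.14 and 9.41, and 6.09 to 6.83 on Rag1 arrays. Its difference was 0.10 with a wider interval, from -0.98 to 1.18, which leaves its size open. A dimmer Dbp probe set gave 0.69 and did not pass. On the clock list 0 of 19 genes were called, with a median of 0.38 (0.24 from BP replicates 1 and 3), and Nr1d1 (1.12, adjusted p = 0.344) and Tef (0.84, adjusted p = 0.371) were nearest the threshold.

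Epithelial functions gave no call, with 0.177% of all genes called higher and 0.0221% lower. With wild type higher, the arrays did not overlap in 10 of 41 brush border and 10 of 34 tight junction genes. The same held for 6 of 42 glycosyltransferases, 3 of 25 goblet cell and 1 of 26 enteroendocrine genes, against 11.8% of all genes. With wild type lower, the counts were 3, 3, 5, 3 and 2 in that order, against 7.38% of all genes. Among glycosyltransferases, which build mucin sugars, B3gnt3 (1.73, adjusted p = 0.179) and St3gal4 (1.42, adjusted p = 0.162) had the largest differences of the 42 tested. Of 41 brush border genes, the amino acid transporter subunits Slc7a8 (0.80) and Slc7a7 (0.54) had the smallest p-values, and of 25 goblet cell genes Fcgbp (0.53), a mucus protein, and Gfi1 (0.71). Cldn15 (0.65) and F11r (0.71) had the smallest p-values of the 34 tight junction genes. Of 26 enteroendocrine genes, the hormones Pyy (-0.97) and Cck (-0.71) did not pass, on the lower side in wild type. The adjusted p-values of these 8 genes, from the brightest probe set of each, ran from 0.189 to 0.472. A dimmer Slc7a7 probe set gave 2.22 and did not pass.

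Metabolic lists gave no call, with 0.177% of all genes called higher and 0.0221% lower. With wild type higher, the arrays did not overlap in 7 of 35 lipid absorption and 8 of 26 fatty acid oxidation genes. The same held for 2 of 22 cholesterol synthesis, 1 of 22 retinoid, 5 of 64 xenobiotic and 0 of 12 bile acid genes. Those with wild type lower numbered 2, 4, 4, 3, 6 and 3 in that order. Over all genes the shares were 11.8% and 7.38%. Apoe gave 1.19 (adjusted p = 0.182) and Fabp6, the bile acid binding protein of the ileum, -0.58 (adjusted p = 0.265). In cholesterol synthesis, Cyp51 gave -1.17 (adjusted p = 0.235) and Tm7sf2 -1.11 (adjusted p = 0.265), with 0 of 22 called. In fatty acid oxidation Acaa1b gave -1.10 and Eci2 -0.61. Of the 26 differences on that list 17 were negative and 9 positive, the highest 0.98. In retinoid metabolism Adh1 gave -0.56 and Rdh16f2 -1.08. Mgst3 (0.94, adjusted p = 0.142) and Gstt3 (0.93, adjusted p = 0.26), glutathione transferases, were nearest among 64 genes of xenobiotic metabolism. Of 12 bile acid transport genes Cyp27a1 gave -0.50.

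Growth and stress genes gave no call either, with 0.177% of all genes called higher and 0.0221% lower. Ccnd2, a cyclin that drives entry into the cell cycle, measured 11.19, 11.41 and 11.11 in wild type and 10.13, 10.20 and 10.41 in BP (0.99, SE 0.16, adjusted p = 0.0779). Ube2c, which acts at the end of mitosis, differed by 1.19 (adjusted p = 0.142). On the cell cycle list 36 of 43 differences were positive, against 7333 of all 13570 genes. The median was 0.28 over all BP arrays, 0.12 from BP replicates 1 and 3 and 0.66 from BP replicate 2. Herpud1 (0.98, adjusted p = 0.138) and Atf4 (0.77, adjusted p = 0.265) had the smallest p-values of the 35 unfolded protein and heat shock genes. Rag1 arrays measured 9.73 to 10.07 for Herpud1, with their mean nearer BP. For Atf4 they measured 10.90 to 11.20, with their mean nearer wild type. Srxn1 (0.49) and Nfe2l2 (0.71) of oxidative stress, Bcl3 (0.99) and Tlr5 (-0.76) of microbial sensing, Dusp6 (0.74) and Myc (0.91) of the immediate early genes, and Cdca7 (0.88) and Tcf7l2 (-1.27) of the crypt did not pass. The sign of Tcf7l2 depended on the probe set: the brightest gave -2.22 from BP replicate 2 and -0.80 from the other BP arrays, while the other 3 gave 0.64, 0.43 and 0.18 over all arrays. Atf4, Cdca7 and Ccnd2 also had probe sets of both signs, down to -0.26, -0.39 and -0.40.

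Lists meant as checks on tissue content gave no call. With 0.177% of all genes called higher and 0.0221% lower, lists of this size can give none whatever the content. The arrays did not overlap in 4 (wild type higher) and 12 (wild type lower) of 38 ribosomal protein genes. These counts were 4 and 6 of 34 in smooth muscle and 9 and 7 of 53 in the respiratory chain. They were 5 and 1 of 19 in enteric neurons and 5 and 1 of 21 in endothelium. Over all genes the shares were 11.8% and 7.38%. In smooth muscle Tpm1 (0.84) and Myh11 (0.98), in enteric neurons Nos1 (-1.26) and Prph (0.69), and in endothelium Aqp1 (0.57) and Cd34 (0.78) had the smallest p-values. For pancreas and fat these were Cidec (0.90) and Prss2 (0.36), for ribosomal proteins Rpl37 (-0.73) and Rps9 (0.45), and for the respiratory chain Sdhc (0.67) and Ndufa2 (-0.73). Some other probe sets of Tpm1, Myh11, Nos1, Prph and Rps9 had the opposite sign. Among genes flanking Rag1 on its chromosome, where a knockout line may keep the sequence of another strain, 0 of 26 were called. The arrays did not overlap in 7 (wild type higher) and 2 (wild type lower), against the same shares of all genes. Cd59a differed by 1.21 (adjusted p = 0.192) and Slc1a2 by 1.01 (adjusted p = 0.325). Mean levels of Cd59a were 8.59 in wild type, 7.38 in BP and 7.06 on Rag1 arrays. Every BP and Rag1 array of Cd59a was below every wild type array. For Slc1a2 the means were 5.61, 4.6 and 5.84 in that order, with Rag1 nearer wild type. The part of strain sequence in these differences was not tested. Rag1 itself and Nos2, the inducible nitric oxide synthase, were too dim to test.

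Sex-linked genes differed between the BP arrays, and between the Rag1 and wild type arrays. Xist, the RNA that coats the inactive X chromosome, measured 5.85 on BP replicate 1, 9.06 on replicate 2 and 10.94 on replicate 3, against 10.11, 10.39 and 10.58 in wild type and 4.50 to 5.27 on Rag1 arrays. The difference was 1.74 with a 95% interval from -0.54 to 4.02. Kdm5d, a Y-linked demethylase, measured 6.05 on BP replicate 1, 4.38 on replicate 2 and 4.70 on replicate 3, against 4.27 to 4.86 in wild type and 6.31 to 6.53 on Rag1 arrays. None of the 10 tested sex-linked genes was called; the differences of Tsix, Uty, Sry, Kdm6a, Kdm5c, Ddx3x, Eif2s3x and Usp9y ran from -0.78 to 0.78. Xist was thus low and Kdm5d high on all Rag1 arrays and on BP replicate 1, and the reverse held on all wild type arrays. The part of sex in the other differences, and in the comparison with the Rag1 level, was not tested.

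Set beside the Rag1 arrays, the genes higher in wild type were mostly closer to the Rag1 level on BP arrays than on wild type arrays. The Rag1 mean was nearer BP than wild type in 20 of the 24, against 34.3% of all genes tested and 23% of genes whose wild type arrays were all above the BP arrays. The exceptions were Psmb8, Rac2, Trav9d-3 and Ubd, for which the Rag1 level lay between the groups and nearer wild type. In 14 of the 24 the Rag1 and BP arrays overlapped, in 10 all Rag1 arrays lay above all BP arrays, and in 23 all Rag1 arrays lay below all wild type arrays. For all 3 genes lower in wild type, Saa3, Hbb-b2 and Cd180, the Rag1 mean was nearer wild type, and the BP arrays were the highest of the series. The Rag1 arrays entered no test here.

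**Figure D4:**
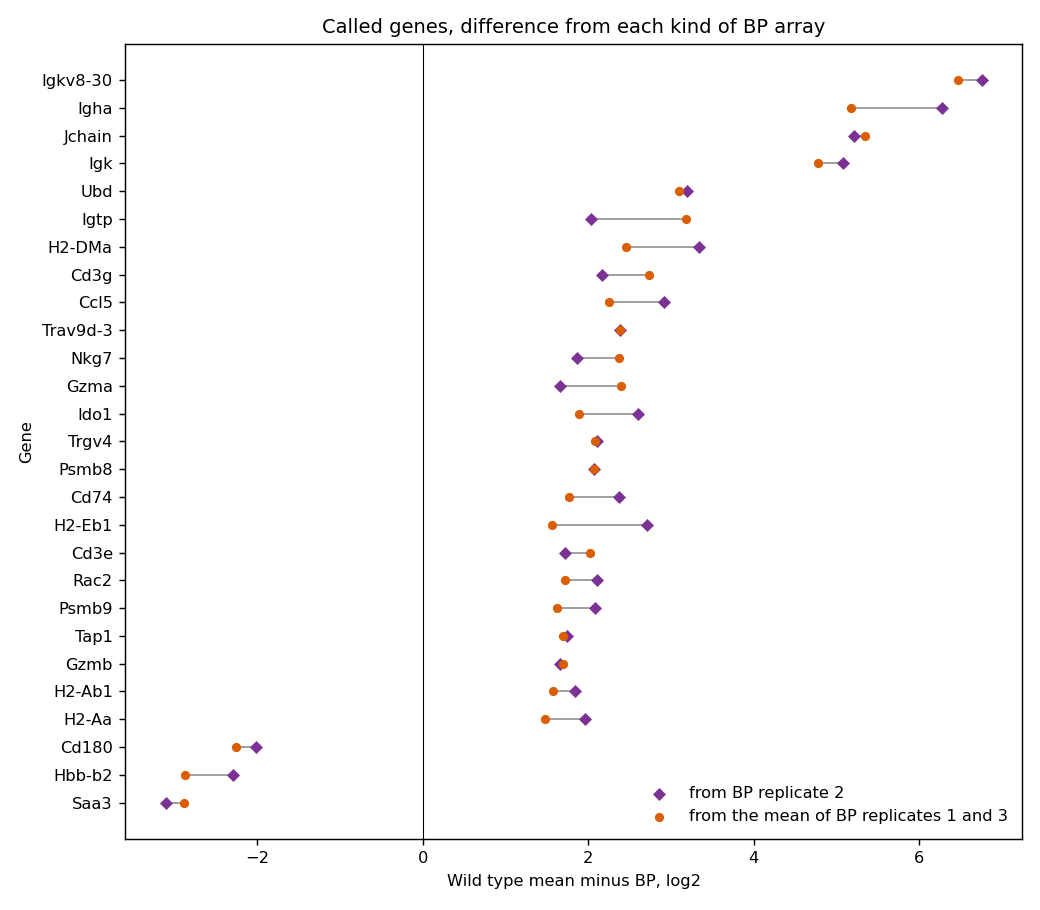
Wild type mean minus BP replicate 2 (diamonds) and minus the mean of BP replicates 1 and 3 (circles), in log2 units (x axis), for the 27 called genes (y axis). Every gene keeps its sign; H2-Eb1 differed by 2.71 from replicate 2 and by 1.57 from the others, and Igtp by 2.04 and 3.18.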

How the data were processed

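RNA of distal small intestine was measured on 9 arrays of 45101 probe sets, and the 3 wild type and 3 BP arrays were compared. The deposited values are linear intensities from 1 to 21694; per the labels' protocols, each array had biotin-labelled cRNA of 20 µg RNA. The authors' software and scaling are not given in the sources used here. The title of each sample gave its column and group. Tests left out the 64 control probe sets. Here the intensities were put on the log2(intensity + 16) scale and quantile-normalized over the 9 arrays. The lowest 40% of probe sets by mean (under 5.30, about 23.5 in intensity) were left out. The difference was fitted on the 6 arrays with limma 3.58.1 (lmFit, eBayes with an intensity trend, 4 residual degrees of freedom) in R 4.3.3, and p-values were adjusted by Benjamini-Hochberg. The Rag1 arrays were kept out of the fit because BP arrays vary more. The array's annotation in GEO gave 34945 probe sets 1 gene symbol, 932 several and 9160 none. Genes named were, in each direction, up to 15 of the largest called differences without overlap (at most 3 receptor genes), up to 6 called members of each list or the 2 with the smallest p, and a few fixed genes; further members, named to fill out a group, were chosen after their values were seen. The members and lists were chosen with earlier results of these data known. The code was tested on simulated data. The number of arrays limits the precision: the median SE was 0.321. Alternatives varied normalization, pseudocount, filter, model and arrays. One further planned motif search is not reported here.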

Additional observations from a re-analysis of the deposited data

Results flagged for a closer look

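The spike-in control probe set for Dap, a bacterial gene used to follow labelling and left out of the comparison, read 1019 in deposited intensity on BP replicate 2, against at most 19.1 on every other array. BP replicate 2 is also the array that stood apart from the other BP arrays, and the calls are given with and without it.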

How the results depend on the processing

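With 3 arrays a group and 4 residual degrees of freedom, the threshold was reached only by differences of at least 0.978 on the log2 scale. The direction of every called gene was the same under each alternative that tested it (Cd180 was tested in 18 of 20), but 22 of the 27 lost the call in at least 1 of them, and Igkv8-30, Igha, Igk, Psmb8 and Saa3 kept it in all. The 45 higher and 7 lower probe sets became 82 higher with median centring, 155 and 16 with all 9 arrays in the fit, 572 and 105 with array weights (0.195 for BP replicate 2), 1436 and 1140 with the actin ratio as covariate, and 2727 and 2320 where BP replicate 2 was the only BP array kept, which is then assumed to vary like the wild type group. They became 25 and 4 without an intensity trend and 23 and 2 at an adjusted p under 0.01. With the values as deposited they became 34 and 4, and with a pseudocount of 1 they became 36 and 3. Leaving out 1 array gave 18 to 1530 higher and 1 to 959 lower, the upper ends without BP replicate 2. The cause of these shifts was not tested. Ddx3x, 0.04 in the comparison as reported, was -0.75 against BP replicate 2 alone (adjusted p = 0.0178). With the replicate number as a block (replicate block), 76 probe sets were higher, 41 of them among the 45, and 7 lower. Same-numbered arrays correlated in their deviations at 0.099, 0.234 and 0.062, and wild type replicate 1 correlated more with BP replicate 3 (0.113), so the numbers were not taken to pair the arrays.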
